A study of Mus musculus and Rattus norvegicus with 37 samples.

Results

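The hepatokine genes described here are Fgf21, Enho, Angptl4, Angptl6, Angptl8, Ahsg, Fetub, Lect2 and Gdf15. Each was found by its gene symbol in the liver RNA-seq tables of the series, which makes 9 of the 47929 uniquely named entries of the mouse tables and 9 of the 28026 of the rat tables. Hepatokines are proteins that the liver releases into the blood and that act on other organs. FGF21 and GDF15 are hormones of fasting and cell stress, adropin (encoded by Enho) acts on fuel use, ANGPTL4 and ANGPTL8 restrain the clearance of triglyceride from blood, and the fetuins (Ahsg and Fetub) and LECT2 are abundant plasma proteins tied to insulin resistance in fatty liver. The questions were how these genes responded when the miR-29 family of microRNAs was inhibited, whether the response differed when liver Sirt1 was deleted according to the labels, and how the same genes stood in an obese rat and after a drug that raises the oxidation of branched chain keto acids.

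The mouse data cover 21 female mice on a C57BL/6J background, fed chow, whose livers were taken in the fed state on day 7 after a single subcutaneous injection at ZT 3 (3 h after lights on). The injection was saline or LNA29, a pair of antisense inhibitors built from locked nucleic acid, against miR-29a and against miR-29b/c, at 20 mg/kg each. The control genotype, WT/Floxed, pools 7 WT mice aged 9 to 11 weeks with 6 floxed mice aged 15 to 20 weeks (8 mice with LNA29 and 5 with saline, after the authors set aside 1 floxed saline mouse). Littermates of the floxed mice whose label is L-Sirt1 KO, a liver-specific deletion of Sirt1 (4 with LNA29 and 4 with saline), were also 15 to 20 weeks old and are called KO-labelled mice here. The promoter that drives Cre in them is not given in the sources used here, and background, age and any difference in study site cannot be told apart between WT and floxed mice. The rat data cover 16 male rats on chow: 4 Zucker Fatty rats (ZFR, fa/fa) and 4 Zucker Lean rats (ZLR) of 5.5 months, and 8 ZFR of 3 months given BT2 (20 mg/kg, 4 rats) or its vehicle, dimethylsulfoxide (4 rats), by daily intraperitoneal injection for 1 week. BT2 inhibits the kinase that restrains branched chain keto acid oxidation.

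All values below are normalized counts, that is, reads per gene divided by the authors' scale factor for each library. Each of the 4 tables was normalized on its own, so levels are compared within a table. Fold changes are on the log2(normalized count + 1) scale, which understates the change of low genes. The estimated depth was 42.6 to 78.0 M reads in mice but 0.188 to 58.5 M in rats, where 1 read was worth up to 10.5 normalized counts. ZLR replicates 3 and 4, BT2 replicate 4 and vehicle replicate 4 were shallow (0.188 to 0.383 M reads), and all 4 were on the same flow cell. Every hepatocyte marker of the list that was an entry was detected in every group (10 in mice and 11 in rats). Sirt1 itself was not lower in the libraries labelled L-Sirt1 KO (535 to 595 normalized counts with LNA29 and 553 to 617 with saline) than in WT/Floxed libraries (510 to 688 and 493 to 699). Counts per gene do not separate the deleted part of Sirt1 from the rest, and the genotypes were normalized apart. The genotype label could therefore not be checked from these values and is used as given. The paper measured hepatic Sirt1 in both genotypes by RT-qPCR, which is not part of the data used here.

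The sequence that links LNA29 to a transcript is the seed of the microRNA, and it is shown here because all family members share it. The mature mouse forms (GRCm38.p6) are printed with the seed, bases 2 to 8, in capitals. Mature miR-29a lies at chr6:31062673-31062694 (minus strand) and miR-29c at chr1:195037600-195037621 (plus strand), and miR-29b is encoded beside each of them, at chr6:31063025-31063047 and chr1:195037091-195037113.
miR-29a-3p: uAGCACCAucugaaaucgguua
miR-29b-3p: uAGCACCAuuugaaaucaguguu
miR-29c-3p: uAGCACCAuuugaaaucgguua
A transcript can pair with this seed where it holds TGGTGCT, or over 8 bases where it holds TGGTGCTA, and these letters were searched on the coding strand of the 9 genes in the GRCm38 annotation. The 3′ UTRs of Enho and Angptl4 held TGGTGCT, which 16.2% of the 13556 coding genes tested in WT/Floxed mice also held. Only Enho among the 9 had the 8-base match in its 3′ UTR, as did 3.49% of the coding genes. The letters are found matches and not binding sites measured in these data. For Enho, the paper cites earlier work that reported direct targeting by miR-29. Windows of 30 bases around the main matches in Enho, Angptl4 and Ahsg are given with the matching bases in capitals.
Enho 3′ UTR, exon 2 of 2, 195 bases after the stop codon, chr4:41638410-41638417, minus strand: gggttaggagtTGGTGCTAgggccagggcc
Angptl4 3′ UTR, exon 7 of 7, 394 bases after the stop codon, chr17:33774987-33774993, minus strand: ggatacactcaTGGTGCTgttgtaggtgct
Angptl4 coding sequence, exon 1 of 7, chr17:33781354-33781361, minus strand: aggcgctgcccTGGTGCTAtgcgcggctac
Ahsg coding sequence, exon 7 of 7, chr16:22899015-22899021, plus strand: gtgggccagccTGGTGCTgctggtccagtg
Ahsg 3′ UTR, exon 7 of 7, 286 bases after the stop codon, chr16:22899361-22899366, plus strand: acgactctgaaaGGTGCTcttgccaatctt
The last of these is a match of 6 bases (seed bases 2 to 7), the only kind found in the 3′ UTR of Ahsg. A further TGGTGCT lay in the 5′ UTR of 2 Ahsg transcripts (chr16:22891401-22891407), and the 3′ UTR of Angptl4 also held a match to seed bases 2 to 7 followed by A at chr17:33774957-33774963. Fetub held TGGTGCT at 2 places in its coding sequence, so that 3 of the 9 genes (Angptl4, Ahsg and Fetub) held it there, as did 21.3% of the coding genes. No match of 7 or 8 bases was found in Fgf21, Angptl6, Angptl8, Lect2 or Gdf15.

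In saline-treated WT/Floxed livers the 9 genes spanned a wide range of levels. Per kb of their longest coding transcript, Ahsg was at a median of 314995 normalized counts, 16.4 times the 19180 of Fetub, and Lect2 was at 9895. Angptl4 (2614), Angptl8 (2386), Enho (1238) and Angptl6 (823) followed, with each neighbouring pair in that order overlapping between mice. Gdf15 (225) and Fgf21 (84.7) were the lowest per kb and also overlapped each other. With LNA29 the order of the 9 medians was the same in WT/Floxed mice, and Ahsg then stood 29.9 times above Fetub. The ranges of Ahsg and Fetub did not overlap in any of the 4 mouse groups.

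**Figure D1:**
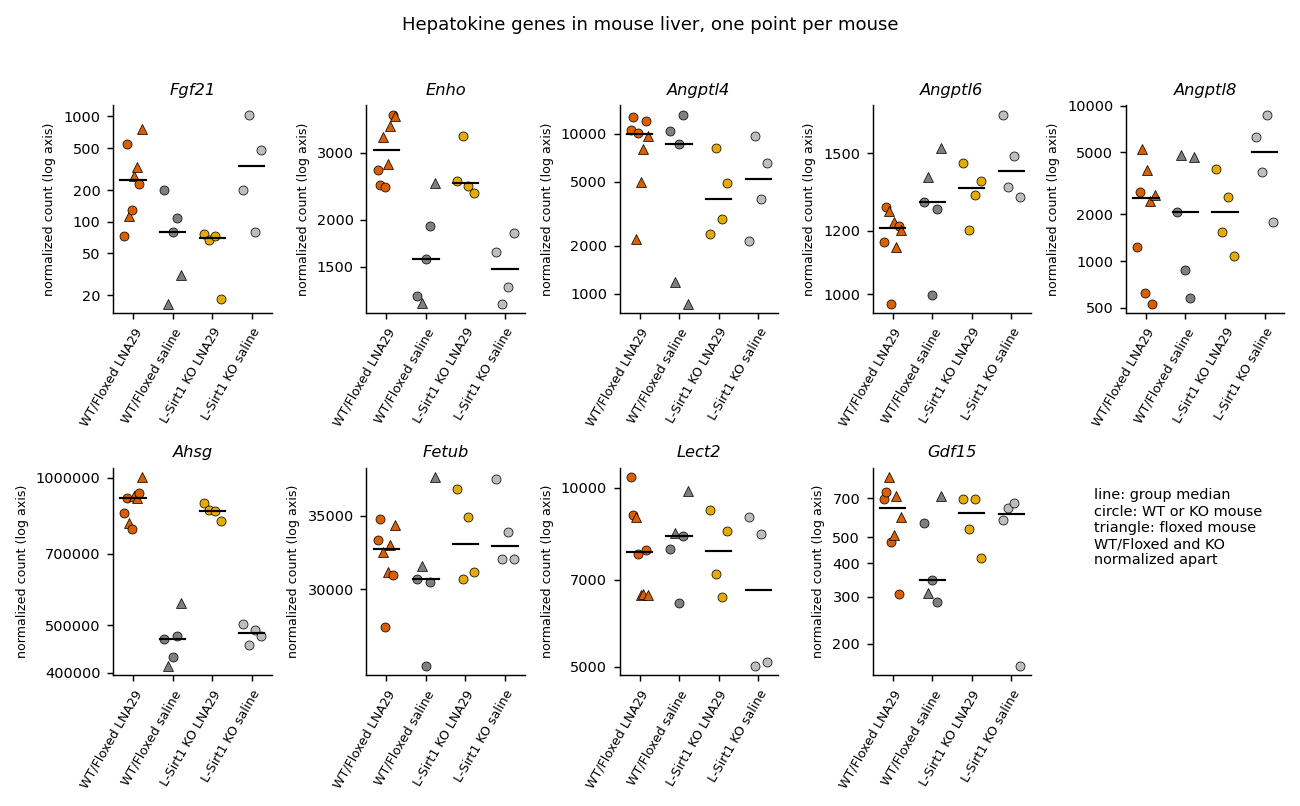
Normalized counts of the 9 hepatokine genes (vertical axis, log scale) in each mouse, by group, with a line at the group median. Circles are WT mice or KO-labelled mice and triangles are floxed mice. Ahsg lay higher in every LNA29-treated liver than in every saline-treated liver, in both genotypes, while the median of Fgf21 was higher with LNA29 than with saline in WT/Floxed mice and lower in KO-labelled mice.

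With LNA29, Ahsg and Enho rose in WT/Floxed mice and in KO-labelled mice, and Fgf21 rose in WT/Floxed mice. A gene was called in mice at p under 0.05, adjusted p under 0.2, mean above 50 and fold change above 1.2, by limma over all genes tested. In WT/Floxed mice 3 of the 9 hepatokine genes were called, all higher, against 4.35% of all genes tested (2.42% higher and 1.93% lower), and 1 of the 9 (Ahsg) did not overlap between the groups, against 1.51%. In KO-labelled mice 2 of 9 were called, both higher, against 1.87% (1.19% higher and 0.68% lower), and 3 of 9 (Ahsg, Enho and Fgf21) did not overlap, against 6.95%. The median log2 fold change over the 9 genes was 0.49 in WT/Floxed mice and -0.02 in KO-labelled mice, beside 0.00 over all genes in each. Enho and Fgf21 were named by the study from these same libraries, so their directions here are not independent evidence. For Fgf21 the paper reports, by DESeq2, a significant rise with LNA29 in WT/Floxed mice and a significant fall in L-Sirt1 KO mice. By limma here that fall missed the limit (adjusted p = 0.247).

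In rats the fetuins and Lect2 were the only hepatokine genes called. Between ZFR and ZLR 3 of the 8 genes that could be tested were called at an adjusted p under 0.05, all lower in ZFR (Ahsg, Fetub and Lect2), against 4.25% of all genes (1.8% higher and 2.46% lower). The groups did not overlap for 4 of the 8 (these 3 and Angptl6), against 14.5% of all genes. With BT2, 0 of the 8 genes were called by limma and 0 did not overlap, against 0% and 2.96% of all genes. At an unadjusted p under 0.05 there were 2 of the 8 (Angptl4 and Angptl8) and 332 of the 8405 genes tested. Enho could not be tested in rats, since its rat entry held 0 to 0.268 normalized counts in every library, at most 7 reads.

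**Figure D2:**
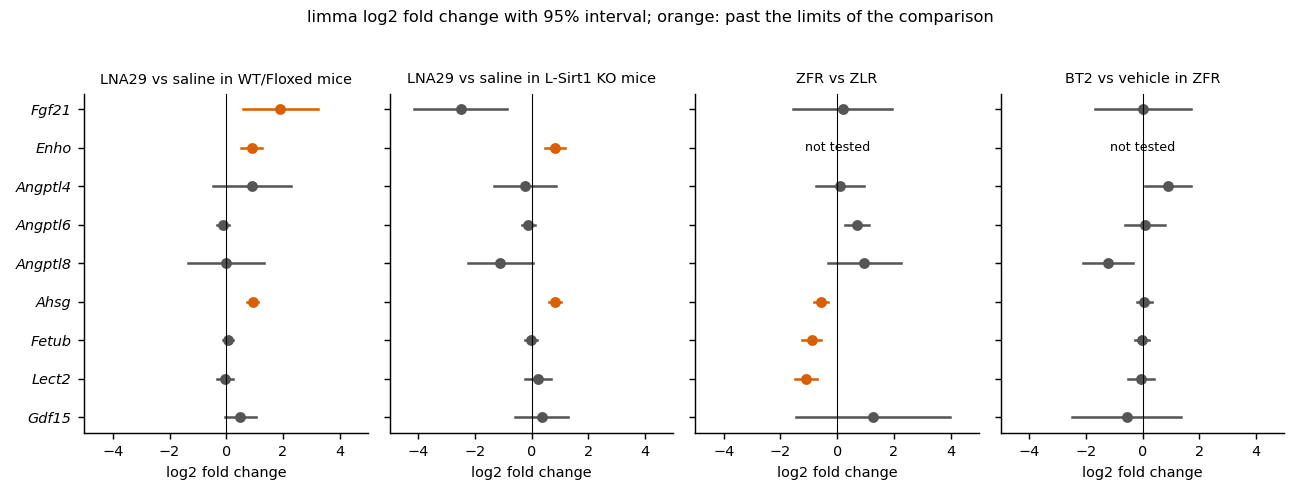
limma log2 fold change of each hepatokine gene (horizontal axis) with its 95% interval in the 4 comparisons, where orange marks the genes past the limits of that comparison. The intervals of Ahsg were narrow in every comparison, while those of Fgf21 were wide.

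Ahsg encodes fetuin-A, a liver-specific glycoprotein that keeps calcium phosphate from precipitating in blood and inhibits the insulin receptor. Its normalized counts in WT/Floxed livers after LNA29 ran from 787060 through a median of 908326 to 1003620, while the 5 saline livers held 467453, 412622, 431227, 475340 and 555587. The lowest treated liver was well above the highest saline liver. The mean rose from 468446 ± 55099 (SD, n = 5) to 888977 ± 70703 (SD, n = 8), which is 1.90-fold (log2 0.93, SE 0.10, adjusted p = 0.000151). The exact permutation p (two-sided) was 0.00155. Ahsg took 0.712% to 0.902% of all counts of a library with saline and 1.35% to 1.69% with LNA29, and its rank among all entries went from between 6 and 10 to 4 in every treated liver.

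In KO-labelled mice, the Ahsg counts were 888425, 857733, 856017 and 816219 with LNA29 and 503257, 456413, 489190 and 475794 with saline. The groups again did not overlap and were tight (CV of 3.46% and 4.15%). The fold change was 1.78 (log2 0.83, SE 0.09, adjusted p = 0.00783). The difference between the responses of the genotypes was -0.10 on the log2 scale (95% interval -0.37 to 0.18), which did not pass the test. Each of the 3 flow cells on which the mouse libraries ran held 1 to 3 WT/Floxed libraries a group and 1 or 2 KO-labelled libraries a group. Within them, the log2 fold change was 0.91 to 1.01 in WT/Floxed mice and 0.76 to 0.91 in KO-labelled mice. It was 0.92 in WT mice alone and 0.92 in floxed mice alone. Since Ahsg is a visible part of each library, the fold changes were also taken after scaling every library to the same sum without Ahsg, an alternative chosen after seeing the data, which gave 0.97 and 0.86 for Ahsg itself and moved no hepatokine gene by more than 0.04 in mice. The gene spans chr16:22891277-22899449 (GRCm38), and an antisense gene, Gm30505, shares 3110 of its bases but is not an entry of the tables.

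In rats, Ahsg was at 8737, 8096, 8634 and 8461 normalized counts in ZFR and at 15494, 11880, 11193 and 12059 in ZLR. Every ZFR was below every ZLR. The fitted fold of ZFR against ZLR was 0.675 (log2 -0.57, SE 0.11, adjusted p = 0.0166), and the exact permutation p was 0.0286, the smallest that 4 against 4 allows. Without the 2 shallow ZLR libraries the log2 fold change was -0.68 (adjusted p = 0.0245), and within the 2 flow cells it was -0.69 and -0.44. The call was lost without ZFR replicate 3 (adjusted p = 0.0514) or ZFR replicate 4 (adjusted p = 0.0549), at log2 fold changes of -0.58 and -0.57, and with TMM scaling (adjusted p = 0.148). After scaling to equal sums without Ahsg it was -0.48. With BT2 the counts were 10652, 10072, 11688 and 14359 against 10636, 11219, 11601 and 11298 with vehicle. These overlapped, and the log2 difference was 0.05 (95% interval -0.21 to 0.32).

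Fetub encodes fetuin-B, the sister protein of fetuin-A and an inhibitor of the protease ovastacin in fertilization. The 2 genes are neighbours, 18884 bases apart on chromosome 16, with Fetub at chr16:22918334-22939778. Unlike Ahsg, Fetub stayed between 25571 and 37920 normalized counts in all WT/Floxed livers. With LNA29 its median was 32661 (from 27762 to 34777), and with saline the livers held 30631, 31528, 25571, 30494 and 37920. The groups overlapped, with a log2 difference of 0.05 (95% interval -0.13 to 0.23). In KO-labelled mice it was at 30628 to 36969 with LNA29 and 31962 to 37792 with saline, a log2 difference of -0.02 (95% interval -0.23 to 0.19).

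In ZFR, Fetub was at 4915, 3280, 4182 and 4453 normalized counts, and in ZLR at 9581, 7104, 7827 and 6788. The fatty rats were all below the lean rats, at a fitted fold of 0.537 (log2 -0.90, SE 0.15, adjusted p = 0.00768). With BT2 it was at 5637, 6877, 6654 and 5139, and with vehicle at 5692, 6384, 6565 and 5999. Here the groups overlapped, with a log2 difference of -0.03 (95% interval -0.29 to 0.23).

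Lect2 encodes a secreted factor that was found as a chemotaxin for leukocytes and is made almost wholly by hepatocytes. It ran in WT/Floxed livers from 6585 through 7783 to 10418 with LNA29, and it was at 7870, 8399, 6398, 8282 and 9884 with saline. The groups overlapped (log2 -0.04, 95% interval -0.31 to 0.23). In KO-labelled mice the ranges were 6551 to 9183 with LNA29 and 5011 to 8940 with saline (log2 0.23, 95% interval -0.23 to 0.70). In rats it was at 80.2, 83.5, 71.0 and 104 normalized counts in ZFR and at 223, 171, 190 and 146 in ZLR. No fatty rat reached the lowest lean rat. The fold change, 0.468 (log2 -1.09, SE 0.17, adjusted p = 0.00667), was the largest fall among the called hepatokine genes and rested on 14 to 5818 reads a library in ZLR and 34 to 2491 in ZFR. Lect2 and Fetub without the shallow ZLR libraries gave log2 fold changes of -1.21 (adjusted p = 0.00685) and -0.99 (adjusted p = 0.0176). With BT2 Lect2 was at 132, 93.4, 130 and 87.0 and with vehicle at 105, 141, 87.1 and 124, a log2 difference of -0.05 (95% interval -0.52 to 0.41).

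Several other measures differed between the same ZFR and ZLR livers. Of the 11 tested hepatocyte markers, 4 were lower and 1 higher in ZFR (Cps1 -0.58 and Fgb -0.53 against Tf 0.44 on the log2 scale), and the summed hepatocyte markers overlapped (299323 to 390408 in ZFR and 330894 to 393419 in ZLR). Of the 12 tested clock genes 4 were higher and 2 lower, led by Dbp (log2 5.01) and Npas2 (log2 -3.65). Of the 7 tested acute phase genes 4 were higher and 1 lower, led by Lcn2 (log2 5.66). Their part in the lower Ahsg, Fetub and Lect2 was not tested, and in these whole-liver libraries fewer cells of a type and less RNA per cell cannot be told apart.

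**Figure D3:**
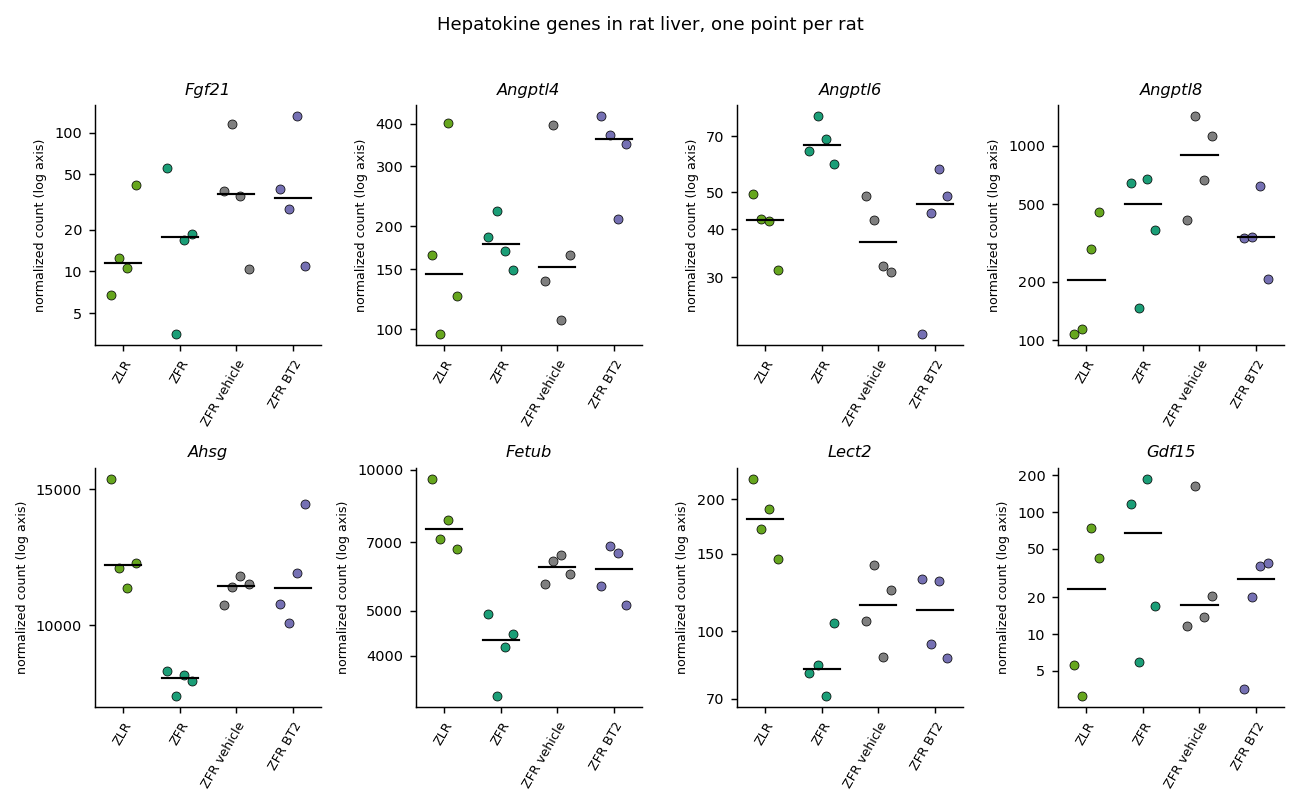
Normalized counts of the 8 hepatokine genes detected in rats (vertical axis, log scale) in each rat, with a line at the group median. The ZLR and ZFR groups come from one table and the ZFR vehicle and BT2 groups from another, normalized apart. Ahsg, Fetub and Lect2 were lower in every ZFR than in every ZLR, and Angptl6 was higher.

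Fgf21 encodes fibroblast growth factor 21, a hormone of fasting and protein shortage whose transcription is driven by PPAR-alpha, ChREBP and ATF4. It ran in WT/Floxed livers from 72.8 through a median of 250 to 761 normalized counts with LNA29 and was at 201, 16.6, 80.5, 108 and 31.1 with saline. The groups overlapped, since 3 treated livers lay below the highest saline liver. The fitted fold change was 3.73 (log2 1.90, SE 0.62, adjusted p = 0.171, exact permutation p = 0.0249). This call was lost when any of 9 of the 13 libraries was left out (LNA29 replicates 2, 5, 6, 7 and 8 and saline replicates 2, 3, 4 and 5), with adjusted p from 0.211 to 0.338 and log2 fold changes from 1.44 to 2.09. Within flow cells the log2 fold change was 1.48 to 2.82.

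In KO-labelled mice the order was turned round. Fgf21 was at 76.4, 66.5, 73.3 and 18.6 with LNA29 and at 199, 1034, 80.0 and 476 with saline. Every treated liver was below every saline liver, although by a small margin at 80.0 against 76.4. The fold change was 0.176 (log2 -2.51, SE 0.74), with an adjusted p of 0.247 that missed the limit, and an exact permutation p of 0.0286, the smallest possible with 4 against 4. Without saline replicate 3 the call was made (log2 -3.14, adjusted p = 0.102), as it was with sample quality weights (log2 -3.05, adjusted p = 0.0986). Within the flow cells, which held only 1 or 2 of these libraries a group, the log2 fold change was -3.80 to -1.47.

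The difference between these responses was tested by itself. The log2 response of Fgf21 in KO-labelled mice minus that in WT/Floxed mice was -4.41 (SE 1.05, 95% interval -6.59 to -2.23) with an adjusted p of 0.231 over the 15601 genes tested. It therefore missed the limit of 0.2, and 0 of the 9 hepatokine genes were called by limma, against 0.0449% of all genes (0.0256% higher and 0.0192% lower). At an unadjusted p under 0.05 there were 1 of the 9, Fgf21, and 1426 of all genes. The call for Fgf21 was made when WT/Floxed LNA29 replicate 1 or 4, WT/Floxed saline replicate 1 or L-Sirt1 KO saline replicate 1 or 3 was left out, with adjusted p from 0.0843 to 0.181. The interval for Enho was -0.62 to 0.47, which is wide beside its log2 response of 0.91 in WT/Floxed mice. For Fetub the interval was -0.34 to 0.20, while those of Angptl4 (-3.17 to 0.86) and Angptl8 (-3.10 to 0.88) were wider.

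In rats Fgf21 was low, at 55.2, 3.53, 16.7 and 18.7 normalized counts in ZFR and 6.74, 12.6, 10.5 and 41.8 in ZLR. The 6.74 and 12.6 in ZLR came from 176 and 291 reads, but the 10.5 and 41.8 of the shallow libraries from 1 and 4 reads. The groups overlapped, and the log2 difference was 0.19 (95% interval -1.55 to 1.94). With BT2 it was at 39.1, 28.0, 131 and 10.9 and with vehicle at 37.8, 116, 34.8 and 10.3, a log2 difference of -0.00 (95% interval -1.70 to 1.69).

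Genes around FGF21 are its receptors (Fgfr1 to Fgfr4 with the coreceptor Klb), the factors that drive it and the protease Fap that cuts it. Of 10 tested in mice 0 were called in either genotype by limma, and the median log2 fold change was 0.07 in the former genotype (WT/Floxed) and -0.07 in the latter. Of the 12 PPAR-alpha targets tested, 0 were called in WT/Floxed mice (median 0.17), and 1 was lower in KO-labelled mice, where the median was -0.63. That gene was Cyp4a14, a fatty acid hydroxylase, at log2 -1.53 (SE 0.37, adjusted p = 0.158). Of the 15 targets of the integrated stress response, Chac1 was higher in WT/Floxed mice (log2 0.98, adjusted p = 0.161) and Atf5 lower in KO-labelled mice (log2 -0.69, SE 0.18, just within the limit). None of these lists had a called gene in the test of the difference between genotypes, where the median was -0.73 for the PPAR-alpha targets and -0.36 for the stress targets, beside 0.00 over all genes.

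Gdf15, a stress hormone that acts through a receptor in the hindbrain, of WT/Floxed mice ran from 308 through 646 to 841 normalized counts after LNA29 and was at 566, 310, 348, 287 and 717 with saline. The groups overlapped (log2 0.49, 95% interval -0.06 to 1.04, adjusted p = 0.450). In KO-labelled mice it was at 697, 539, 698 and 420 with LNA29 and 580, 642, 674 and 165 with saline (log2 0.35, 95% interval -0.57 to 1.28). Here 1 saline liver lay below all the rest. In rats it varied widely, at 117, 5.88, 188 and 17.1 in ZFR and 5.56, 3.11, 73.7 and 41.8 in ZLR (log2 1.25, 95% interval -1.46 to 3.97). Without the shallow ZLR libraries that difference was 2.98 (adjusted p = 0.203). With BT2 it was at 3.56, 20.02, 36.2 and 38.1 and with vehicle at 11.6, 164, 13.8 and 20.6 (log2 -0.56, 95% interval -2.49 to 1.37). Of 10 tested p53 targets, a pathway that also drives Gdf15, 3 were higher in WT/Floxed mice with LNA29, among them Cdkn1a (log2 1.44, adjusted p = 0.125) and Phlda3 (log2 0.57, adjusted p = 0.124). In KO-labelled mice 0 of the 10 were called by limma, with Cdkn1a at log2 1.49 (adjusted p = 0.263) and Phlda3 at 0.16 (adjusted p = 0.832), and the list median was 0.26 in WT/Floxed mice and 0.27 in KO-labelled mice.

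Enho, the adropin gene, is the gene above with the 8-base seed match in its 3′ UTR. In WT/Floxed mice the treated livers ran from 2440 through 3053 to 3776 and the saline livers were at 1256, 1202, 1571, 1921 and 2499. Of the saline livers only the last, a floxed mouse, reached into the treated range. The fold change was 1.87 (log2 0.91, SE 0.17, adjusted p = 0.0195). The KO-labelled livers were at 2526, 3319, 2455 and 2350 with LNA29 and at 1644, 1199, 1325 and 1848 with saline. There the groups did not overlap, and the fold change was 1.78 (log2 0.83, SE 0.16, adjusted p = 0.0815). The difference between the genotypes was -0.08 (SE 0.26), which did not pass the test. Within flow cells the log2 fold change was 0.78 to 1.19 in WT/Floxed mice and 0.59 to 1.03 in KO-labelled mice. In WT mice alone it was 0.84 (adjusted p = 0.228) and in floxed mice alone 0.94 (adjusted p = 0.168). Enho spans chr4:41638144-41640324 and an antisense gene, Gm12406, shares 947 of its bases. The coding gene Dnaic1, also on the opposite strand, shares 15. Without a stated strand setting reads from the shared bases cannot be told apart. Gm12406 held means of 2.45 to 9.88 normalized counts in the 4 mouse groups. Dnaic1 rose with LNA29 in WT/Floxed mice (log2 2.31, adjusted p = 0.0154) and was at 0.81 in KO-labelled mice (adjusted p = 0.502), and its part in the Enho values was not tested.

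Angptl4 encodes an inhibitor of lipoprotein lipase that is induced by fasting and fatty acids. Its counts split by background before they split by treatment. WT mice held 10487, 12695, 10114 and 12029 with LNA29 and 10375, 8648 and 13098 with saline, while floxed mice held 2195, 5007, 7983 and 9670 with LNA29 and 1180 and 867 with saline. The saline-treated floxed livers were the lowest of all, below the 2195 that came next. Over all 13 mice the log2 response to LNA29 was 0.92 (95% interval -0.47 to 2.30, adjusted p = 0.605). In WT mice alone it was 0.10 (adjusted p = 0.876). In floxed mice alone it was 2.41 (adjusted p = 0.113), which passed the limits for a call. The test of that difference, added after seeing the data, gave 2.32 (SE 0.57, adjusted p = 0.525), which did not pass the limit of 0.2 that 0.00632% of all genes passed. Only 2 of the floxed livers analysed had received saline, so the floxed response rests on those.

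Angptl8 encodes a secreted regulator of blood triglyceride that rises with feeding and insulin, and it showed the opposite split. WT mice held 1227, 2797, 626 and 531 with LNA29 and 2064, 870 and 577 with saline, and floxed mice 5286, 3823, 2449 and 2670 with LNA29 and 4795 and 4646 with saline. The floxed livers were above the WT livers with 1 exception, the WT liver at 2797. With LNA29 as a covariate, floxed minus WT was 1.90 for Angptl8 (SE 0.38, adjusted p = 0.0185) and -1.93 for Angptl4 (SE 0.40, adjusted p = 0.0223) on the log2 scale. These were 2 of the 9 hepatokine genes past an adjusted p of 0.05 in this test, also added after seeing the data, against 5.66% of all genes. The response of Angptl8 to LNA29 was -0.00 over all WT/Floxed mice (95% interval -1.34 to 1.34). In KO-labelled mice it was at 3907, 1537, 2578 and 1076 with LNA29 and 6301, 3741, 8704 and 1773 with saline (log2 -1.11, SE 0.51, adjusted p = 0.465). These groups overlapped. Angptl8 lies wholly within Dock6 on the opposite strand (chr9:21835510-21837347), and Dock6 was at -0.22 and 0.15 in the same comparisons (adjusted p = 0.578 and 0.776).

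**Figure D4:**
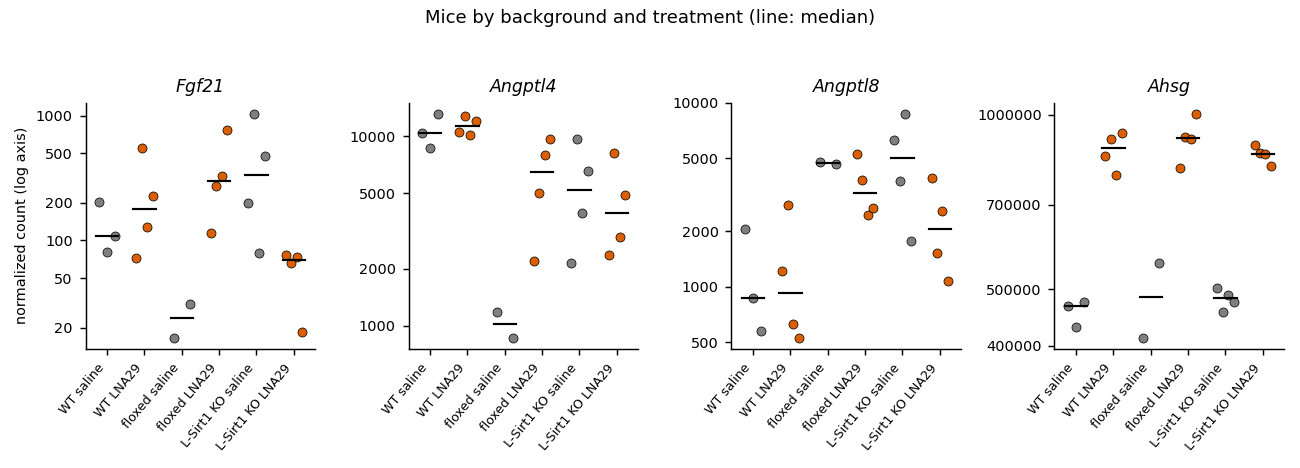
Normalized counts (vertical axis, log scale) of 4 hepatokine genes in mice split by background and treatment, with a line at the median (orange LNA29, grey saline). Angptl4 was lowest in the 2 saline-treated floxed livers and Angptl8 was lower in WT than in floxed mice, whereas Ahsg rose by the same log2 fold of 0.92 in both backgrounds.

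Fgf21 was also compared between backgrounds. WT mice held 72.8, 548, 129 and 229 with LNA29 and 201, 80.5 and 108 with saline, and floxed mice 115, 271, 330 and 761 with LNA29 and 16.6 and 31.1 with saline. In WT mice the groups overlapped and in floxed mice they did not. The log2 response was 0.62 in WT mice alone (SE 0.63, adjusted p = 0.807) and 3.65 in floxed mice alone (SE 0.64, adjusted p = 0.0837). The difference was 3.03 (SE 1.01, adjusted p = 0.525) and did not pass. In the same test Lect2 differed by -0.57 (adjusted p = 0.529), Enho by 0.10 and Ahsg by -0.00.

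In KO-labelled mice, Angptl4 was at 2367, 8101, 2931 and 4906 with LNA29 and at 2137, 9698, 3927 and 6529 with saline, and these overlapped (log2 -0.24, 95% interval -1.33 to 0.86). In rats it was at 186, 222, 169 and 149 in ZFR and 164, 96.9, 400 and 125 in ZLR, where the 400 came from 38 reads (log2 0.10, 95% interval -0.74 to 0.93). With BT2 it was at 420, 371, 210 and 348 and with vehicle at 139, 396, 106 and 165. Every BT2 liver was above 3 of the 4 vehicle livers and 3 were below the other, and the log2 difference of 0.89 (SE 0.36, p = 0.0336, exact permutation p = 0.114) had an adjusted p of 0.898. Angptl8 moved the other way, at 335, 342, 624 and 207 with BT2 and 418, 1420, 666 and 1125 with vehicle (log2 -1.23, SE 0.39, p = 0.0102, exact permutation p = 0.0571, adjusted p = 0.898). Neither passed the limit. Within the 2 flow cells the differences were 0.75 and 1.02 for Angptl4 and -1.27 and -1.19 for Angptl8. Without the shallow libraries they were 0.82 and -0.82. In ZFR against ZLR, Angptl8 was at 641, 147, 677 and 370 against 108, 114, 295 and 459 (log2 0.95, SE 0.58, adjusted p = 0.450), and at 1.81 (adjusted p = 0.0898) without the shallow libraries.

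Angptl6, also known as angiopoietin-related growth factor, showed no called change in mice. It ran from 974 through 1210 to 1285 with LNA29 in WT/Floxed mice and was at 1303, 1402, 998, 1280 and 1521 with saline, which overlap (log2 -0.12, 95% interval -0.33 to 0.09). In KO-labelled mice it was at 1204 to 1458 with LNA29 and 1323 to 1674 with saline (log2 -0.12, 95% interval -0.35 to 0.11). In rats it was at 64.1, 78.8, 68.9 and 59.1 in ZFR and 49.5, 42.5, 42.1 and 31.3 in ZLR. Every ZFR was above every ZLR, but the log2 difference of 0.71 (SE 0.19) had an adjusted p of 0.078 and was not called. The 42.1 and 31.3 in ZLR came from 4 and 3 reads, and without the shallow libraries the difference was 0.54 (adjusted p = 0.106). It was 0.62 and 0.80 within the flow cells. With BT2 it was at 21.4, 44.1, 57.6 and 48.9 and with vehicle at 48.7, 42.3, 32.1 and 31.0 (log2 0.09, 95% interval -0.61 to 0.79). The gene shares 500 bases with A230050P20Rik on the opposite strand.

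ANGPTL4 and ANGPTL8 act on lipoprotein lipase, and the genes around that enzyme were looked at as a list. In WT/Floxed mice 1 of 9 was called, Lpl itself (log2 0.80, SE 0.17, adjusted p = 0.0314), which was at 0.67 in KO-labelled mice (SE 0.23, adjusted p = 0.304). In KO-labelled mice 2 of 9 were lower, namely Lipg, an endothelial lipase (log2 -1.15, adjusted p = 0.127), and Apoc2, the activator of lipoprotein lipase (log2 -0.46, adjusted p = 0.0603). In ZFR 2 of 7 were lower than in ZLR, namely Apoa5 (log2 -1.11, adjusted p = 0.00179) and Apoc2 (log2 -0.62, adjusted p = 0.0155). Other angiopoietin-like genes (4 tested in WT/Floxed mice, 3 in KO-labelled mice and 2 in ZFR against ZLR) had 0 called by limma. The other type 3 cystatins, the family to which the fetuins belong, had 0 of 3 called in either mouse genotype, with medians of -0.05 and -0.02, and 0 of 2 in ZFR against ZLR.

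Among other proteins that the liver secretes, 2 of 18 were called in WT/Floxed mice with LNA29, both higher. These were Fst, the activin antagonist follistatin (log2 1.12, adjusted p = 0.0349), and Igfbp2, a binding protein for insulin-like growth factors (log2 0.74, adjusted p = 0.0195). In KO-labelled mice Igfbp1 (log2 1.19, adjusted p = 0.0603) and Igfbp2 (log2 0.55, adjusted p = 0.148) rose and Inhbe, an activin subunit (log2 -1.33, adjusted p = 0.0239), fell. In ZFR 1 of 15 was higher than in ZLR and 3 were lower. They included Gpnmb (log2 1.81, adjusted p = 0.00179), Tsku, which encodes tsukushi (log2 -1.71, adjusted p = 0.0235), and Hamp, the iron hormone hepcidin (log2 -1.01, adjusted p = 0.00254).

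The nutrient lists moved as follows beside the hepatokine genes. Of 13 lipogenic genes under insulin and carbohydrate, 4 were lower with LNA29 in WT/Floxed mice, led by Thrsp (log2 -1.63, adjusted p = 0.0509) and Elovl6 (log2 -0.93, adjusted p = 0.0392), and 0 of 13 were called in KO-labelled mice, with Thrsp at -0.34 (adjusted p = 0.887) and Elovl6 at -0.49 (adjusted p = 0.594). In ZFR 7 of 12 were higher than in ZLR, led by Pnpla3 (log2 4.00) and Scd (log2 3.37). Of 9 glucocorticoid and fasting targets, Tat was called lower in WT/Floxed mice (log2 -0.48, adjusted p = 0.0993). Igfbp1 and G6pc (log2 0.75, adjusted p = 0.0538) were called higher in KO-labelled mice. In WT/Floxed mice Igfbp1 was at log2 1.43 (adjusted p = 0.380) and G6pc at 0.86 (adjusted p = 0.413), which were not called. Between ZFR and ZLR 0 of 8 were called. Of 14 clock genes 0 were called by limma in either mouse genotype. Of 12 acute phase genes 5 were lower in WT/Floxed mice, led by Saa2 (log2 -1.48, adjusted p = 0.00237) and Lcn2 (log2 -1.02, adjusted p = 0.00983). The KO-labelled mice had 0 of the 12 called by limma, with Saa2 at log2 -1.44 (adjusted p = 0.312) and Lcn2 at -1.33 (adjusted p = 0.421), and the list medians were -0.17 and -0.16. In ZFR the PPAR-alpha targets had 1 of 10 higher (Vnn1) and 1 lower (Acadm), the p53 targets 1 of 8 higher (Btg2), and the stress and FGF21 lists 0 of 11 and 0 of 8 called. With BT2, and in the test of the difference between mouse genotypes, 0 genes of any list were called by limma.

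Markers of other cell types were read beside the called mouse genes. The summed hepatocyte markers of WT/Floxed mice overlapped (7046110 to 8621880 with LNA29 and 5397070 to 8348850 with saline), and 1 of 10, Apoa1, was higher (log2 0.51, adjusted p = 0.0312). Of 8 sinusoidal endothelial markers Lyve1 was lower (log2 -0.51, adjusted p = 0.165). The macrophage, stellate, cholangiocyte, red blood cell, pancreatic, adipocyte and lymphocyte lists had 0 called by limma in these mice. In KO-labelled mice 2 of 8 macrophage markers were lower (Vsig4 -0.54 and Clec4f -0.29 on the log2 scale), 2 of 8 sinusoidal endothelial markers were lower (Lyve1 -1.17 and Stab1 -0.53), and the other lists, hepatocyte markers included, had 0 called. The uncalled WT/Floxed values were -0.57 for Vsig4 (adjusted p = 0.530), -0.37 for Clec4f (adjusted p = 0.555) and -0.20 for Stab1 (adjusted p = 0.581). The macrophage list median was -0.43 in WT/Floxed mice and -0.34 in KO-labelled mice. In ZFR against ZLR, Acta2 of the stellate list (log2 2.24) and Stab2 of the endothelial list (log2 1.16) were higher, Cela1 of the pancreatic list was lower, and 0 were called in the macrophage, cholangiocyte, red blood cell, adipocyte and lymphocyte lists. The part of these cell types in the hepatokine values was not tested.

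For each hepatokine gene the 3 genes whose log2 counts followed it most closely from mouse to mouse were taken out of 12759, after the mean of each of the 4 mouse groups was subtracted. These values of Pearson's r over 21 mice are descriptions. The mice share tables, flow cells and backgrounds, so the points are not independent of these. Fgf21 was nearest to Dennd1b (0.90), Golga5 (0.86) and Mboat7 (0.85). Enho was nearest to Gnl1 (0.86) and Capn1 (0.78). Among these, Golga5 encodes a Golgi protein and Capn1 a calcium-dependent protease. Ahsg was nearest to Serpina1a (0.80), B4galnt1 (0.76) and Apoa1 (0.73), of which Serpina1a and Apoa1 encode major plasma proteins of the liver. Fetub was nearest to Med29 (0.92), Mrpl50 (0.91) and Gm8355 (0.90), and Lect2 to Sardhos (0.91), Rarres2 (0.91) and Idh2 (0.90). Rarres2 encodes chemerin, another secreted liver protein. Over the 16 rats the same r was 0.36 for Fetub with Med29 and -0.22 with Mrpl50, and 0.32 for Fgf21 with Golga5. It was 0.34 and 0.29 for Lect2 with Rarres2 and Idh2, and 0.58 and 0.46 for Ahsg with B4galnt1 and Apoa1.

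The angiopoietin-like genes and Gdf15 had their own nearest genes. Angptl4 was nearest to Dnmbp (0.97), Slc25a47 (0.96) and Prpf18 (0.94), and these stayed at 0.90 to 0.94 when WT and floxed mice were given means of their own. Angptl8 was nearest to Cep152 (0.92), Tdp2 (0.90) and Scnm1 (0.89), which fell to 0.80 to 0.85 in that way. Angptl6 was nearest to Apoa2 (0.90), Rbp4 (0.90) and Gm6158 (0.90), where Apoa2 and Rbp4 encode plasma carriers of lipid and retinol. Gdf15 had the loosest neighbours, Mtss1 (0.76), Trappc2 (0.75) and Ap5s1 (0.73). Over the 16 rats the same r for Angptl4 was -0.17 with Dnmbp, 0.67 with Slc25a47, a mitochondrial carrier of hepatocytes, and 0.05 with Prpf18. It was 0.53 and 0.65 for Angptl6 with Apoa2 and Rbp4, -0.27 for Angptl8 with Tdp2 and -0.52 for Gdf15 with Mtss1.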

How the data were processed

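Liver RNA was sequenced in 37 libraries (21 mice and 16 rats). The authors aligned and quantified reads with STAR and Salmon and deposited 4 tables of DESeq2-normalized counts, a signal that is relative within each table. Mouse gene and transcript models are GENCODE vM21 (GRCm38) and the microRNA sequences are from RefSeq. Of low values (below 20 reads), at least 69.5% in mice and 74.1% in rats came out as whole reads within 0.01, so the values were not treated as counts. Depth was estimated from the value of 1 read, and intervals cover the spread between animals. The strand setting of the counting is not given in the sources used here.

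Entries with no gene name (381 in each mouse table and 201 in each rat table) or a repeated name (130 and 4523) were left out, and 0 columns lacked a sample. Log2(normalized count + 1) of genes with a mean of at least 10 was tested with limma 3.58.1 (trend) in R 4.3.3, and p-values were adjusted by Benjamini-Hochberg over all genes. The limma step was tested on simulated data. Calls in mice needed p under 0.05, adjusted p under 0.2, mean above 50 and fold change above 1.2, and calls in rats an adjusted p under 0.05. The difference between genotypes was an interaction term (adjusted p under 0.2). Single values were tested by two-sided exact permutation over samples. Python 3.11.15, numpy 2.4.6, scipy 1.17.1, pandas 2.3.3 and matplotlib 3.10.9 were used.

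The hepatokine genes, pathway lists and marker lists were chosen with earlier results of these data known. All 9 hepatokine genes are named in every comparison, up to 2 called genes of each list in each direction, and the 3 genes with the highest correlation to each hepatokine gene among those with a mean of at least 50 in both mouse tables, of which 1 is not reported here. Levels per kb use the longest coding transcript of the annotation. Alternatives covered the pseudocount, the minimum mean, TMM scaling, weights, flow cell, replicate number, background, limits and each library left out. Tests of WT against floxed mice, scaling without Ahsg and the 6-group correlation were added after the data were seen.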

Additional observations from a re-analysis of the deposited data

Results flagged for a closer look

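In a check of every hepatokine gene in every group for a library far from the rest, 4 of 68 groups had one, where chance finds about 1 in 20. Fgf21 was at 18.6 normalized counts in L-Sirt1 KO LNA29 replicate 4, against 66.5 to 76.4 in the other livers of the group. Fgf21 in ZLR replicate 4 was at 41.8, against 6.74 to 12.6, and this library was a shallow one in which the value came from 4 reads. Angptl6 was at 974 in WT/Floxed LNA29 replicate 4, against 1145 to 1285. Gdf15 was at 164 in ZFR vehicle replicate 2, against 11.6 to 20.6.

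The response to LNA29 differed between groups of mice at an unadjusted p under 0.05 in a few cases, and none of them passed the adjustment over all genes. For Fgf21 the log2 response in KO-labelled mice minus that in WT/Floxed mice was -4.41 (adjusted p = 0.231). Between floxed and WT mice, a split tested after the data were seen, the log2 response differed by 3.03 for Fgf21 (adjusted p = 0.525), 2.32 for Angptl4 (adjusted p = 0.525) and -0.57 for Lect2 (adjusted p = 0.529), while 0.00632% of all genes passed an adjusted p of 0.2 in that test.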

How the results depend on the processing

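Of the counts of called hepatokine genes, 34 of 43 under alternatives other than leaving out a library were within 1.5 times the value given. In WT/Floxed mice the count went from 3 to 1 (Ahsg) with WT mice alone and to 4 with floxed mice alone, where Angptl4 was added. In KO-labelled mice it went from 2 to 1 (Ahsg) at an adjusted p under 0.05. Between ZFR and ZLR it went from 3 to 1 (Lect2) with no minimum mean, to 6 with sample quality weights and to 7 with precision weights. The genes gained there were higher in ZFR: Angptl6 (log2 0.57 and 0.52), Angptl8 (2.00 and 1.94) and Gdf15 (3.53 and 4.25) with either set of weights, and Fgf21 (2.30) with precision weights. For the difference between genotypes it went from 0 to 1 (Fgf21) with sample quality weights (-4.72, adjusted p = 0.0417), background as a covariate (-4.45, adjusted p = 0.175) or floxed mice alone (-6.16, adjusted p = 0.129). The share of all genes called is not given here for any of the alternatives, so these counts have no background beside them. The cause of these changes was not tested. With each library left out in turn the counts were 2 to 3 in WT/Floxed mice, 2 to 3 in KO-labelled mice, 2 to 3 between ZFR and ZLR, 0 with BT2 and 0 to 1 for the difference.

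The replicate numbers were treated as names and not as pairs. Deviations of same-numbered animals correlated at -0.28 to 0.24, and not every pair was above 0.1, which cannot show whether the numbers pair the animals. Same-numbered rats of a comparison shared a flow cell, as did some same-numbered mice, so a block on the number also takes up flow cell. With the replicate number as a block, the count in WT/Floxed mice went from 3 to 1 (Ahsg, with Fgf21 at 1.47 and an adjusted p of 0.844 and Enho at 0.74 and 0.291), and it was 0 with BT2 and 0 for the difference. It was 2 in KO-labelled mice, where Enho lost its call (0.83, adjusted p = 0.211) and Angptl8 gained one (-1.11, adjusted p = 0.133), and 2 between ZFR and ZLR, where Ahsg lost its call (adjusted p = 0.0511).

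Single genes kept their direction and side of the limit in 318 of 369 cases and in 441 of 506 with a library left out. Fgf21 in WT/Floxed mice also lost its call with no minimum mean (adjusted p = 0.258) and with flow cell as a covariate (adjusted p = 0.206), and Ahsg and Fetub between ZFR and ZLR with no minimum mean (adjusted p = 0.180 and 0.0561). Angptl4 in WT/Floxed mice was called with background as a covariate (log2 1.11, adjusted p = 0.199) and with floxed mice alone (log2 2.41, adjusted p = 0.113). Signs turned only for values that were not called. In WT/Floxed mice Angptl8 was at 0.0035 (TMM), 0.31 (quality weights), 0.0054 (flow cell), 0.18 (block) and 0.030 (WT alone), Fetub at -0.082 (floxed alone), and Lect2 at 0.0058 (flow cell), 0.060 (block) and 0.22 (WT alone). In KO-labelled mice Fetub was at 0.0019 (quality weights). With BT2 Fgf21 was at 0.0024 (pseudocount 10), and quality weights and leaving out the shallow libraries gave -0.087 and -0.091 for Angptl6, -0.0080 and -0.048 for Ahsg, and 0.020 and 0.038 for Fetub, while Lect2 was at 0.099 without the shallow libraries. For the difference Enho was at 0.087 (block), Angptl6 at -0.012 (TMM) and -0.030 (flow cell), Fetub at 0.060 (floxed alone) and Gdf15 at 0.14 (quality weights).

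With a library left out, signs turned within these ranges. In WT/Floxed mice they were -0.43 to 0.34 (Angptl8), -0.018 to 0.12 (Fetub) and -0.13 to 0.032 (Lect2), and in KO-labelled mice -0.63 to 0.10 (Angptl4), -0.072 to 0.032 (Fetub) and -0.13 to 0.54 (Gdf15). Between ZFR and ZLR they were -0.17 to 0.51 (Angptl4) and -0.37 to 0.84 (Fgf21). With BT2 they were -0.052 to 0.12 (Ahsg), -0.074 to 0.39 (Angptl6), -0.090 to 0.050 (Fetub), -0.62 to 0.55 (Fgf21), -0.96 to 0.28 (Gdf15) and -0.17 to 0.057 (Lect2), and for the difference -0.054 to 0.10 (Angptl6), -0.23 to 0.033 (Enho) and -0.62 to 0.053 (Gdf15).

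Depth limited some rat values, since 1 read was worth up to 10.5 normalized counts and Fgf21, Angptl6, Gdf15 and Lect2 rested on a few reads in the shallow libraries. In each comparison 4 or more animals a group set the precision.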
